A study of Mus musculus with 37 samples.

Results

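The tumours described here grew from the clones bulk_6419c1 and bulk_6419c5, lines of mouse pancreatic tumour cells that were each implanted under the skin of C57BL/6 mice. The rule took 1 library of each clone, its tumour numbered 2, so 2 of the 37 libraries of the series, and set them against 3 libraries of other clones that the labels also call T cell low: bulk_6499c3, bulk_6556c3 and bulk_6694c2, each again its tumour numbered 2. All 5 tumours were taken whole 3 weeks after implantation, with no treatment, and their bulk RNA was sequenced. C57BL/6 is an inbred strain, and no immune deletion, age or sex is given for the hosts in the sources used here. T cell high clones served as a further reference, as 8 libraries of 7 clones. Each line is a single clone, the site is not the pancreas, and how the T cell label was measured is not given. The meaning of the shared number in both names is not given either, so whether the 2 clones share an origin is unknown here. Fewer cells of a type and less RNA per cell cannot be told apart in bulk RNA.

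Pancreatic ductal adenocarcinoma is a tumour of epithelial cells with ductal features, embedded in fibroblasts, vessels and immune cells. Its cells commonly depend on growth signals that run through the MAPK cascade, and they can drift towards other gut-related programmes such as gastric or intestinal ones. Bulk RNA from an implanted tumour mixes the clone's own transcripts with those of the host's stroma and blood. A gene that differs between tumours can come from either source.

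The 5 libraries held 27.2 to 33.3 M counts. Levels below are CPM (counts per 1 M counts of the library), given in the order bulk_6419c1, bulk_6419c5 and then bulk_6499c3, bulk_6556c3 and bulk_6694c2. Libraries of the same 5 clones from tumours numbered 1 (7.39 to 43.4 M counts) contain RNA of liver and heart (Myh6, Myh7, Cps1 and Serpina3k summed to 1508 to 5894 CPM there and to at most 0.539 CPM in the 5 libraries compared) and were used only as a check of direction. Across genes, each of these 5 libraries correlated more with the library numbered 1 of another clone than with the library numbered 2 of its own. For bulk_6419c5 Pearson's r was 0.987 with bulk_6694c2 numbered 1 and 0.914 with its own library numbered 2, and for bulk_6419c1 it was 0.963 with bulk_6499c3 numbered 1 and 0.948 with its own. The summed liver and heart genes were highest in bulk_6419c5 (5894 CPM) and bulk_6694c2 (4164 CPM) numbered 1, and the part of this shared RNA in the correlations was not tested. Whether each library numbered 1, that of bulk_6419c5 above all, holds mainly the clone of its label is in doubt and was not tested either. Every value from the libraries numbered 1 below carries that doubt. Whether the replicates are separate cultures or animals beyond being separate tumours is not given, so p-values measure the spread between these libraries.

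The 3 marker genes Krt19, Clu and Spp1 were abundant in all 5 tumours, but not every epithelial gene was. Within the ductal epithelial list of 20 genes, Krt8 stood at 2175 to 3323 CPM and Esrp1 at only 0.300 to 1.98 CPM. Vim, of the mesenchymal transition list, stood at 2606 to 3843 CPM. Krt19, a keratin of pancreatic ducts, stood at 1346 and 1940 CPM in the bulk_6419 clones and at 1876, 1244 and 827 CPM in the others. Clu, a secreted chaperone, stood at 11360 and 7546 CPM against 8705, 12130 and 15350 CPM. Spp1, the secreted phosphoprotein osteopontin, stood at 15220 and 6276 CPM against 3264, 5333 and 6286 CPM, so that bulk_6419c1 was the highest and bulk_6419c5 lay within the others. None of the 3 passed the test: the log2 difference of the bulk_6419 clones minus the other low clones was 1.06 (SE 0.48, edgeR adjusted p = 0.422) for Spp1, -0.42 for Clu and 0.26 for Krt19. The acinar factor Ptf1a had no count in any of the 5 libraries.

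T cell genes did not separate the bulk_6419 clones from the other low clones. The 20 genes of the T cell list summed to 49.86 and 45.01 CPM in bulk_6419c1 and bulk_6419c5 and to 45.3, 69.2 and 53.0 CPM in the others, against 55.9 to 93.0 CPM in the T cell high clones. How many T cells the label requires is not given.

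The first question is which genes set the bulk_6419 clones apart from the other low clones. With edgeR's quasi-likelihood test and Benjamini-Hochberg adjustment, 0 of 16343 genes (0% of those tested) passed an adjusted p of 0.05. The smallest adjusted p was 0.0552, and 2072 genes had an unadjusted p under 0.05, of which 1090 lay higher and 982 lower in the bulk_6419 clones. DESeq2 called 561 genes on the same libraries, limma voom called 4, and edgeR without a filter on low counts called 76. Leaving out bulk_6499c3 raised the edgeR count to 61, while leaving out bulk_6419c1, bulk_6556c3 or bulk_6694c2 gave 0 and leaving out bulk_6419c5 gave 1. For a single gene, 2 libraries against 3 cannot give an exact permutation p below 0.1. The genes below are therefore given by their levels. In 3093 of the 16343 genes (18.9%) both bulk_6419 libraries lay above all 3 others, and in 2160 (13.2%) both lay below. With TMM-scaled CPM these shares were 16.2% and 16.3%.

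Most of the 10 genes with the smallest p on the higher side were at a few CPM or less in the other low clones. Tm4sf5, a 4-transmembrane surface protein of epithelia, stood at 45.5 and 62.8 CPM against 1.621, 2.581 and 1.504 CPM (log2 difference 4.75, SE 0.34, edgeR adjusted p = 0.0552). Cdhr5, a cadherin of the intestinal brush border, stood at 40.4 and 98.6 CPM against 1.44, 0.66 and 1.26 CPM (log2 difference 5.88, SE 0.51, edgeR adjusted p = 0.0598). In both genes the 2 groups did not overlap, although the bulk_6419 clones themselves differed widely for Cdhr5 (SD 41.1 CPM).

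Further genes known from gut epithelium and its signalling were among the 10. Olfm4, a secreted glycoprotein known from intestinal stem cells, stood at 51.4 and 24.9 CPM against 1.23, 0.54 and 0.63 CPM. Ptger3, the EP3 receptor for prostaglandin E2, stood at 46.8 and 23.9 CPM against 0.871, 0.600 and 0.455 CPM. Dclk1, a microtubule-associated kinase used as a tuft cell marker, was counted in every library, with 115 and 173 CPM against 31.3, 31.7 and 27.2 CPM. Its 2 groups did not overlap, and the log2 difference was 2.19 (SE 0.21, edgeR adjusted p = 0.0598).

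Wt1, a transcription factor of kidney and mesothelium development, stood at 52.8 and 13.1 CPM against 0.390, 0.360 and 0.385 CPM. Crtam, an adhesion receptor known from cytotoxic lymphocytes, stood at 5.56 and 7.73 CPM against 0.0901, 0.0901 and 0.140 CPM, values that rest on a few counts in the other low clones. The 14 genes of the cytotoxic and NK cell list, which does not hold Crtam, summed to 2.59 and 3.64 CPM against 12.6, 6.96 and 12.2 CPM. Of its 5 tested genes, 1 had a higher and 4 a lower value. Below all 3 others lay 1 and above them 0, beside 13.2% and 18.9% of all genes. C4bp, an inhibitor of complement, stood at 6.53 and 12.1 CPM against 0.540, 0.330 and 0.385 CPM. Kank1 (181 and 154 CPM against 16.6 to 29.8 CPM) and Zfp704 (89.5 and 81.0 CPM against 19.4 to 22.5 CPM) completed the 10. In each of the 10 genes the groups did not overlap, which is how genes with the smallest p look and is no separate support.

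On the lower side the gastric tight-junction gene Cldn18 differed most. It stood at 0.215 and 0.626 CPM in the bulk_6419 clones and at 485, 267 and 30.4 CPM in the others (log2 difference -9.32, SE 1.51, edgeR adjusted p = 0.218). Tlcd2, which acts on membrane lipids, stood at 1.65 and 1.62 CPM against 9.906, 20.98 and 24.52 CPM. Eomes, a T-box transcription factor of the cytotoxic and NK cell list, stood at 0.646 and 0.368 CPM against 9.76, 3.27 and 8.08 CPM. Scn8a, a voltage-gated sodium channel, stood at 1.26 and 0.478 CPM against 9.97, 9.37 and 22.1 CPM.

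The other 6 lower genes were counted well above the detection limit in every library. Sfrp2, a secreted Wnt antagonist, stood at 25.6 and 24.9 CPM against 69.1, 52.5 and 64.6 CPM. Rock2, a kinase of the actin cytoskeleton, stood at 165 and 177 CPM against 341, 369 and 318 CPM. Ltbp1, which binds latent TGF-beta, stood at 116 and 119 CPM against 255, 229 and 311 CPM. Asap2, a regulator of Arf GTPases, stood at 63.0 and 59.8 CPM against 141, 146 and 124 CPM. Fam110c and Fam84a stood at 18.99 and 15.09 CPM against 41.15 to 47.98 CPM and at 38.5 and 29.4 CPM against 106 to 249 CPM. Of these genes, Asap2, Fam110c, Fam84a and Rock2 lie on chromosome 12.

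**Figure D1:**
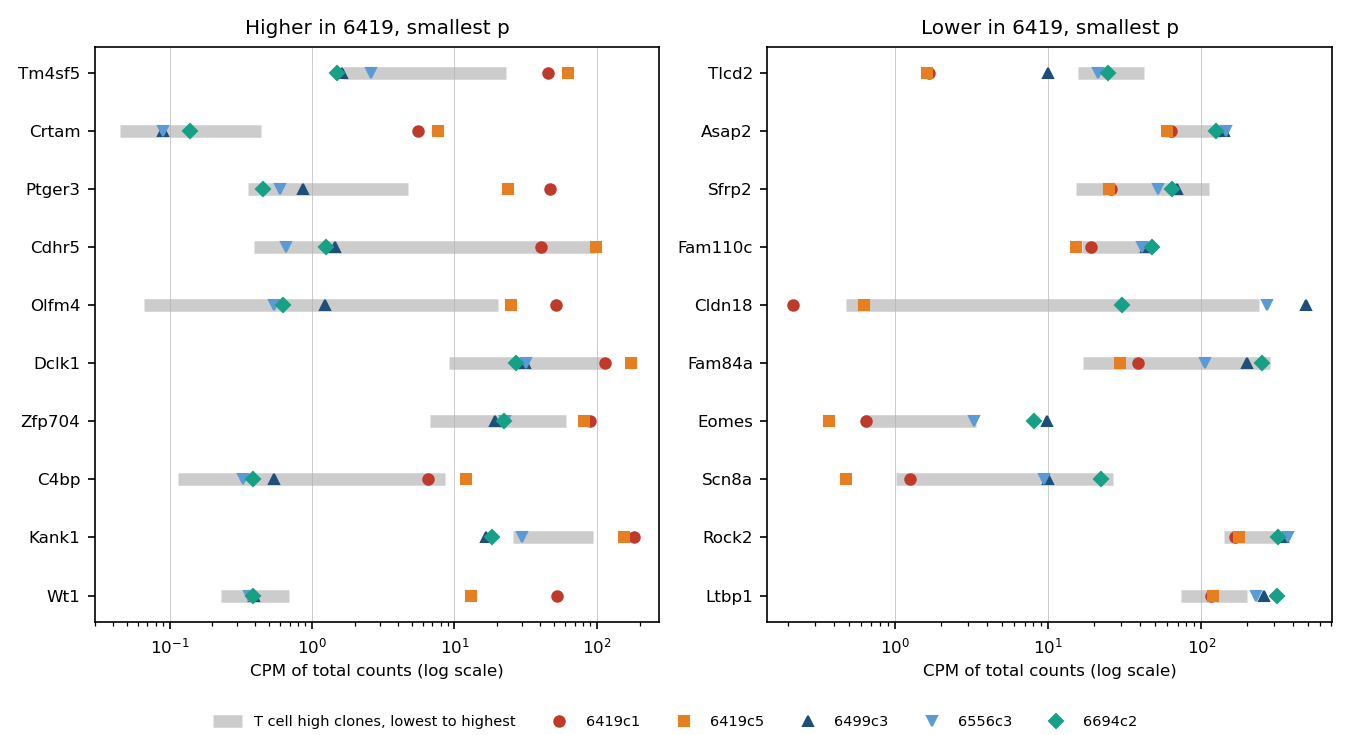
Level of the 10 genes per direction with the smallest p, in CPM of total counts on a log axis. Each symbol is 1 library, with the bulk_6419 clones in red and orange, and the grey bar runs from the lowest to the highest of 7 T cell high clones. Both bulk_6419 symbols stand outside the 3 other low clones in every row, as for Tm4sf5 at 45.5 and 62.8 CPM.

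In the libraries numbered 1, all 10 of the higher genes and 9 of the 10 lower genes kept their sign, and both bulk_6419 clones lay beyond all 3 others in 7 and 7 of them. Among all genes that did not overlap in the libraries numbered 2, 2521 of 3019 with a value kept the higher sign and 847 lay above all 3 others, and 1750 of 2131 kept the lower sign and 297 lay below. C4bp, which the liver also makes, stood at 40.3 and 113 CPM against 65.5, 45.1 and 74.4 CPM there, so that the groups overlapped. Sfrp2 turned, with a log2 difference of 0.17 in place of -1.36.

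The second question is whether these genes also differ from the T cell high clones, tested on counts summed per clone over 15 clones. The comparison shares the bulk_6419 clones with the one above. Here 21 of 18847 genes passed edgeR's adjusted p of 0.05: 20 were higher in the bulk_6419 clones (0.106% of genes tested) and 1 was lower (0.00531%). Without bulk_6419c1 the count was 6, and without bulk_6419c5 it was 18, so that many of the calls rest on 1 of the 2 clones. DESeq2 called 93 genes, but 5 of these 21 were not among them: Hsd3b1, Clec2h, Ces2f, Hoxa11 and Hoxa11os. Of the 10 genes per direction named above, only Crtam, Wt1 and Tlcd2 were among the 21. Cdhr5 (edgeR adjusted p = 0.916), Olfm4 (0.734), Tm4sf5 (0.596) and Cldn18 (0.491), for example, were not. Cdhr5 reached 97.2 CPM in a T cell high clone, and Tm4sf5 reached 116 CPM in the T cell intermediate clone bulk_6422c5.

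Hsd3b1, a hydroxysteroid dehydrogenase of steroid hormone synthesis, was higher and stayed called by edgeR when either bulk_6419 clone was left out, but DESeq2 did not call it (adjusted p = 0.399). It stood at 36.1 CPM in bulk_6419c1 and 3.90 CPM in bulk_6419c5, at 0 in all 3 other low clones and at 0 to 0.0226 CPM in the T cell high clones (edgeR adjusted p = 0.00146). Against the floor of 3 counts over the 3 other low libraries together, its mean was at least 635-fold higher. It was detected in the tumours numbered 1 of bulk_6419c1 and bulk_6419c5 as well, at 11.3 and 0.130 CPM, and at 0 in the 3 others.

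Several of the called genes were carried by both clones at like levels. Maf, a transcription factor of the basic leucine zipper family, was higher at 209 and 192 CPM, against 87.8, 49.1 and 53.9 CPM in the other low clones and 55.7 to 85.9 CPM in the T cell high clones (log2 difference from high 1.57, SE 0.21, edgeR adjusted p = 0.0151). Acadm, an enzyme of mitochondrial fatty acid oxidation, was higher at 208 and 282 CPM, against 84.2 to 112 CPM and 79.2 to 134 CPM (edgeR adjusted p = 0.0329). Amer2, a regulator of Wnt signalling at the membrane, was higher at 16.01 and 13.21 CPM, against 3.54 to 3.88 CPM and 2.37 to 6.34 CPM. In Maf, Acadm and Amer2 both bulk_6419 clones lay above all 13 other clones in the fit. Leaving out bulk_6419c1 ended the call for all 3 (edgeR adjusted p = 0.211 for Maf, 0.118 for Acadm and 0.965 for Amer2), and leaving out bulk_6419c5 ended it for Acadm (0.28) and Amer2 (0.129) but not for Maf (0.0462). In the libraries numbered 1, Maf stood at 136 CPM in bulk_6419c1 and 53.3 CPM in bulk_6419c5.

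Crtam was higher than in the T cell high clones too (0.0453 to 0.439 CPM, edgeR adjusted p = 0.0265), as were Slc16a5, a member of the monocarboxylate transporter family, at 2.76 and 2.58 CPM, and the carboxylesterases Ces2e and Ces2f. None of Crtam, Slc16a5 and Ces2e stayed called without either clone. Tlcd2 was the 1 gene called lower, though not without either clone, with 15.7 to 42.1 CPM in the T cell high clones (edgeR adjusted p = 0.034). Clone bulk_2669c4, a T cell low clone outside the comparison, had 1.40 CPM of Tlcd2, below both bulk_6419 clones. Wt1 was higher than in the T cell high clones (0.232 to 0.690 CPM, edgeR adjusted p = 0.0329), though not without bulk_6419c1 (edgeR adjusted p = 0.577), and the T cell intermediate clone bulk_6422c5 reached 114 CPM.

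Other genes were much higher in 1 of the 2 clones. In bulk_6419c1 these were Fga, the fibrinogen alpha chain (37.7 CPM, with 0.773 CPM in bulk_6419c5), Bai2, an adhesion receptor (33.4 and 1.66 CPM), Wnt6, a Wnt ligand (8.83 and 0.184 CPM), and C3, the central complement component (3915 and 1040 CPM). In bulk_6419c5 these were Rhox5, a homeobox gene of the reproductive tract on the X chromosome (4.24 CPM in bulk_6419c1 and 385 CPM in bulk_6419c5), Clec2h, a C-type lectin (0.431 and 6.51 CPM), and Hoxa11, Hoxa11os and Hoxa13. Without bulk_6419c5 the edgeR adjusted p of Rhox5 was 0.608, and without bulk_6419c1 that of Fga was 1. Hsd3b1, Cyp2d10, Serpina1e, Ces2e, Ces2f and Clec2h belong to families of near-identical genes, so counts could have been split among copies. Hoxa11 and its antisense gene Hoxa11os cannot be told apart, since the strand setting is not given.

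**Figure D2:**
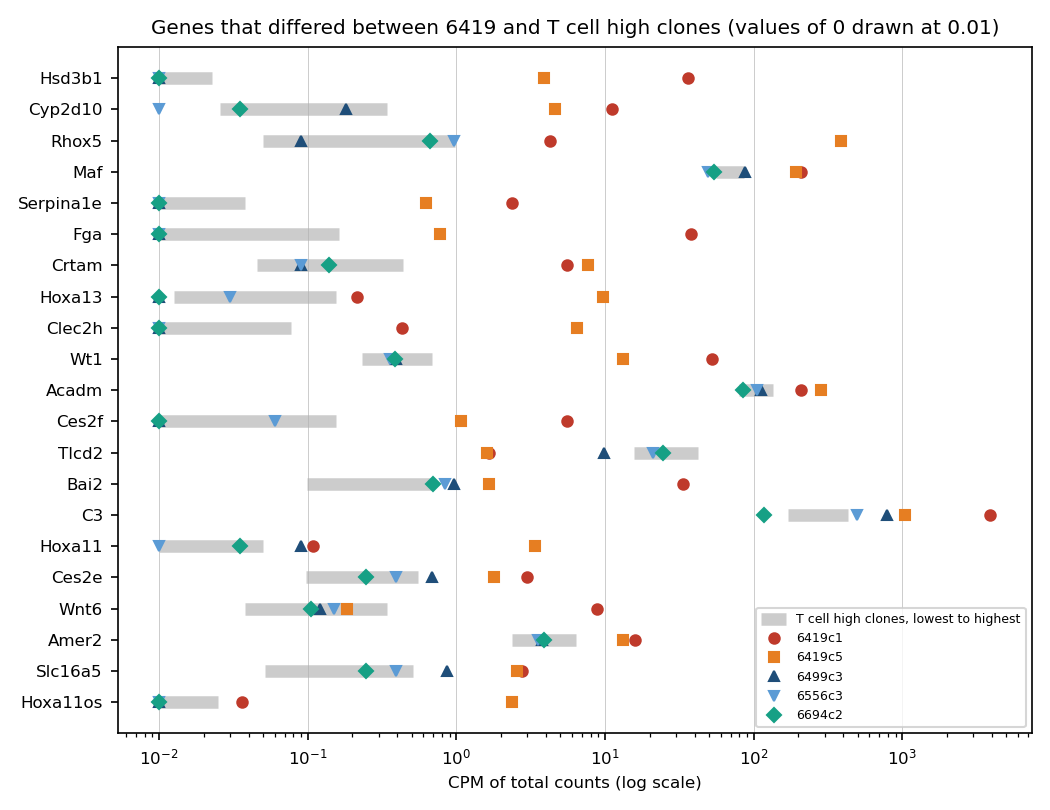
Level of the 21 genes that differed between the bulk_6419 clones and the T cell high clones, in CPM of total counts on a log axis, with values of 0 drawn at 0.01. Symbols are single libraries and the grey bar is the range of the T cell high clones. Maf and Acadm show both bulk_6419 symbols together, and Fga and Rhox5 show them far apart.

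Levels of liver transcripts differed between these libraries as well. The 10 genes of the liver list summed to 375 CPM in bulk_6419c1 and 106 CPM in bulk_6419c5, against 114, 12.1 and 4.97 CPM in the other low clones and 2.82 to 67.2 CPM in the T cell high clones. Alb, the plasma albumin, stood at 124 and 4.82 CPM against 16.7, 0.0901 and 0.105 CPM. Fgb, the fibrinogen beta chain, stood at 51.8 and 1.55 CPM against 0.751, 0.330 and 0.105 CPM, and Ttr, the thyroid hormone carrier transthyretin, at 147 and 90.8 CPM against 85.2, 10.2 and 3.53 CPM. In the same 2 libraries the hepatocyte genes Cyp2e1 (0.144 and 0 CPM) and Tat (0.108 and 0.0368 CPM) were near 0. Serpina3k stood at 0.0718 and 0 CPM, but it is among the genes that defined libraries without liver and heart RNA. Its low level was therefore limited by that choice. The share of these transcripts in the calls of Fga, Serpina1e and Cyp2d10 was not tested.

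Complement genes lay higher in the bulk_6419 clones. Of 15 tested genes 10 had a higher value, and 7 lay above all 3 others and 0 below, beside 18.9% and 13.2% of all genes. With TMM-scaled CPM 7 lay above and 1 below, beside 16.2% and 16.3%. The median log2 difference was 0.66 beside -0.02 over all genes tested, and 0 passed the test against the other low clones. C3 stood at 3915 and 1040 CPM against 794, 496 and 118 CPM, and C3 was the 1 gene of the list called against the T cell high clones. Without bulk_6419c1 that call was lost: the log2 difference went from 3.12 to 1.80 and the edgeR adjusted p was 1. C2, a serine protease of the classical pathway, stood at 14 and 18.25 CPM against 7.54, 2.34 and 5.49 CPM. C1qa, a subunit of the C1q recognition complex made mainly by macrophages, stood at 359 and 297 CPM against 196, 178 and 106 CPM (log2 difference 0.98, SE 0.28, edgeR adjusted p = 0.309).

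Macrophage genes lay higher beside them, and their part in the complement values was not tested. Of 18 tested macrophage and monocyte genes, 14 had a higher value in the bulk_6419 clones. Above all 3 others lay 10 (8 with TMM-scaled CPM) and below them 0, beside 18.9% and 13.2% of all genes. The list summed to 5300 and 4962 CPM against 3073, 2438 and 1582 CPM. Apoe, a lipid carrier abundant in tumour macrophages, stood at 3161 and 3021 CPM against 1444, 1106 and 522 CPM, and Cx3cr1, the fractalkine receptor, at 69.7 and 47.9 CPM against 31.1, 15.5 and 7.31 CPM. The median log2 difference was 0.45. The T cell high clones spanned 2963 to 5220 CPM for the summed list, so bulk_6419c5 lay within that range and bulk_6419c1 just above it. The MHC class II list had a higher value for 11 of 11 genes, but only 2 lay above all 3 others (1 with TMM-scaled CPM). That is no more than the share of 18.9% over all genes. Cd74, the invariant chain, overlapped and stood at 956 and 490 CPM against 582, 528 and 206 CPM.

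Genes of vessel walls lay higher as well. Of 10 smooth muscle and pericyte genes, 9 had a higher value, with a median log2 difference of 0.64. Above all 3 others lay 8 (7 with TMM-scaled CPM), beside 18.9% of all genes. Kcnj8, a potassium channel of pericytes, stood at 13.6 and 14.2 CPM against 6.03, 4.35 and 3.95 CPM, and both clones lay above all 13 other clones. Rgs5, a pericyte marker, stood at 83.9 and 93.8 CPM against 54.1, 25.5 and 27.7 CPM. Of 14 endothelial genes, 12 had a higher value and 5 lay above all 3 others, beside the same 18.9%. The smallest p was that of Cldn5, a tight-junction gene of vessels, at 23.98 and 15.97 CPM against 7.03, 8.47 and 6.33 CPM. The 7 red blood cell genes summed to 795 and 2242 CPM against 1459, 91.8 and 68.7 CPM. Fibroblast and collagen genes were split, with 5 of 20 higher and a median of -0.13. Above all others lay 3 and below all others 3, beside 18.9% and 13.2% of all genes. None of these genes passed the test.

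Genes of the cell cycle lay lower in both bulk_6419 clones. Of 20 tested genes, 19 had a lower value, 14 lay below all 3 others beside 13.2% of all genes, and the median log2 difference was -0.74. Without bulk_6419c1 the median was -0.54 and without bulk_6419c5 it was -0.86, and in the libraries numbered 1 it was -0.29. None passed the test. Cdc20, an activator of the anaphase-promoting complex, stood at 35.0 and 60.8 CPM against 85.2, 109 and 105 CPM (log2 difference -1.14, SE 0.28, edgeR adjusted p = 0.27). Ccnb1, the mitotic cyclin B1, stood at 21.4 and 28.6 CPM against 34.9, 78.7 and 63.1 CPM. Mcm2, a subunit of the replicative helicase, stood at 90.0 and 109 CPM against 133, 164 and 174 CPM. Ccne1, the cyclin of S-phase entry, was the 1 gene on the other side, at 8.76 and 12.6 CPM against 7.78, 5.01 and 7.45 CPM. The T cell high clones overlapped with the bulk_6419 clones: they spanned 44.98 to 97.92 CPM for Cdc20 and 20.2 to 74.8 CPM for Ccnb1.

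Promoters of mitotic genes are known for CCAAT boxes, the binding motif of the factor NF-Y, and promoters of cholesterol genes for CCAAT boxes beside sterol response elements. Only part of the members of the 2 lists that had an entry was ranked by p, and those with the smallest p are shown. For each gene a single listed promoter is given, as the 200 bases before the start site, from RefSeq on build GRCm38.p6. They are read 5′ to 3′ on the strand of the gene, with CCAAT on either strand (CCAAT or ATTGG) and the sterol response element (CACNCCAC, either strand) in capitals. Cdc20 is at chr4:118437344-118437543, Ccnb1 at chr13:100786487-100786686 and Mcm2 at chr6:88898781-88898980, all 3 on the minus strand, and Idi1 at chr13:8885406-8885605 and Hmgcs1 at chr13:119690151-119690350, both on the plus strand.
Cdc20: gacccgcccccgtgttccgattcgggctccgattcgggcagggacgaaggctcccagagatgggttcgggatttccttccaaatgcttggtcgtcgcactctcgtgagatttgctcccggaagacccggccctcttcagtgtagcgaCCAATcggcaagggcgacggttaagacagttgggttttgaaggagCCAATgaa
Ccnb1: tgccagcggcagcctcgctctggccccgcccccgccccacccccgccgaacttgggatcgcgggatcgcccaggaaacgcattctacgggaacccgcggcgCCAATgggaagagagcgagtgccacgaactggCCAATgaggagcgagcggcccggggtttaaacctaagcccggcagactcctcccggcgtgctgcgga
Mcm2: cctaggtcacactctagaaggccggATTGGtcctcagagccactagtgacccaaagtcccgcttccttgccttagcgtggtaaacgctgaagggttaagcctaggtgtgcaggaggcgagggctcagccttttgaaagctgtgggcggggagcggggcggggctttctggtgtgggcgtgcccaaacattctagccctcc
Idi1: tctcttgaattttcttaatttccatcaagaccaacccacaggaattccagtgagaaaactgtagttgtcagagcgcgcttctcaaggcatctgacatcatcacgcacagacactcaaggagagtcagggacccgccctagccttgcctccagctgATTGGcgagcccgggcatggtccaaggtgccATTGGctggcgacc
Hmgcs1: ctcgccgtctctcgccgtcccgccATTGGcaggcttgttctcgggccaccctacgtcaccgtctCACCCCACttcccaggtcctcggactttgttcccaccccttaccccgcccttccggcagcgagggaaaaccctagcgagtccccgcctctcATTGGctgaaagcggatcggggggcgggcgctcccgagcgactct

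A CCAAT box occurred in this window in 14 of 17 cell cycle genes and 6 of 7 cholesterol genes that had a promoter entry (in at least 1 listed promoter of the gene), beside 29.3% of all 32851 promoters of the same length. The sterol response element occurred in 2 of the 7 cholesterol genes and 0 of the 17 cell cycle genes, beside 4.3% of all promoters. The list counts are of genes and the shares over all are of single promoters, so a gene with several promoters had more chances of a match. The matches describe the sequence and were not tested against the expression values.

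Cholesterol synthesis genes lay lower as well. Of 13 tested genes, 12 had a lower value and the median log2 difference was -0.76. Below all 3 others lay 8 (7 with TMM-scaled CPM), beside 13.2% of all genes. Idi1, the isomerase of isopentenyl units, stood at 5.64 and 8.21 CPM against 12.1, 13.4 and 17.2 CPM, and 13 of 13 other clones lay above both. Hmgcs1, a synthase of the early pathway, stood at 106 and 119 CPM against 127, 207 and 258 CPM. In the libraries numbered 1 the median was -0.32.

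**Figure D3:**
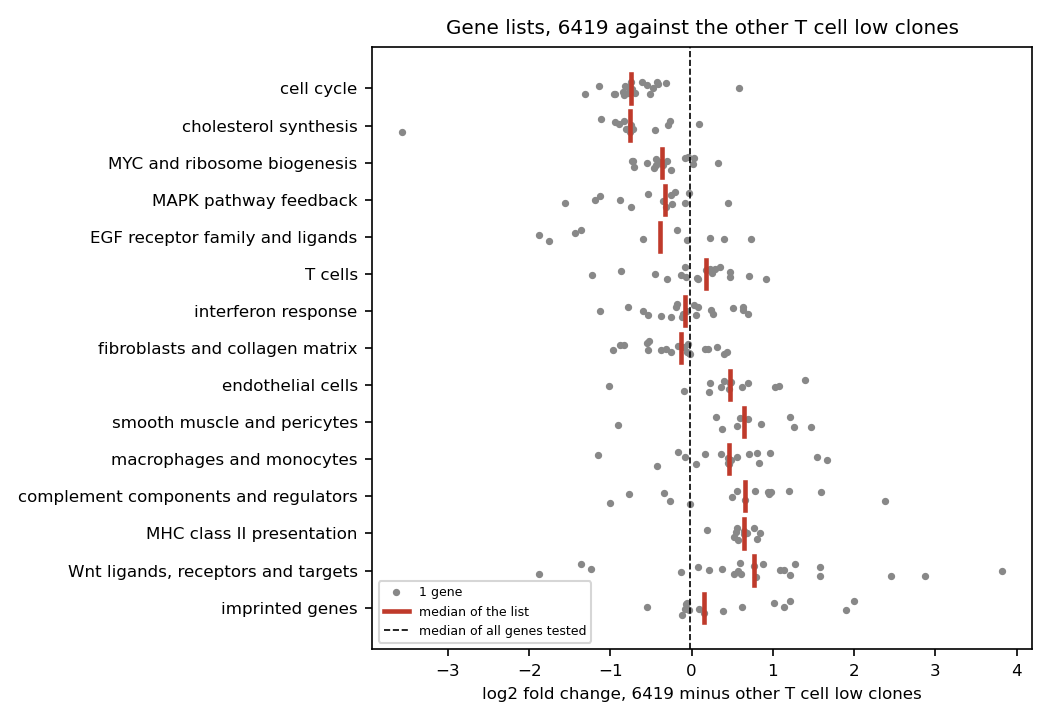
Log2 fold change of the bulk_6419 clones minus the other T cell low clones for 15 gene lists. Each dot is 1 gene, the red bar is the median of its list and the dashed line is the median of all genes tested (-0.02). Cell cycle and cholesterol synthesis lie left of that line at -0.74 and -0.76, and complement, smooth muscle and Wnt genes lie right of it.

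Genes of growth signalling lay on the low side with them. Of 14 genes of the MAPK list 13 had a lower value and 4 lay below all 3 others, beside 13.2% of all genes, with a median of -0.33. Fosl1, an AP-1 subunit induced by MAPK signalling, stood at 19.5 and 17.0 CPM against 29.5, 57.8 and 65.2 CPM, whereas Dusp6, a phosphatase of ERK, overlapped at 214 and 166 CPM against 141, 193 and 221 CPM.

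Of 10 tested genes of the EGF receptor list, 5 ligands lay below all 3 other low clones in both bulk_6419 clones, beside 13.2% of all genes. Areg (amphiregulin) stood at 14.22 and 18.99 CPM against 28.61, 33.3 and 96.3 CPM, and Hbegf at 107 and 117 CPM against 135, 255 and 471 CPM. Btc (betacellulin), Ereg (epiregulin) and Tgfa followed the same order. The receptor Egfr overlapped, at 66.6 and 48.4 CPM against 55.5, 70.8 and 46.2 CPM. Myc, the growth-promoting transcription factor, stood at 96.4 and 77.6 CPM against 137, 141 and 133 CPM. Of 16 genes of the MYC and ribosome list 13 had a lower value (median -0.37). Below all 3 others lay 7 of them (9 with TMM-scaled CPM), beside the same 13.2%.

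Wnt genes lay mostly on the high side. Of 23 tested genes, 19 had a higher value, with a median of 0.77. Above all 3 others lay 15 (12 with TMM-scaled CPM) and below them 2, beside 18.9% and 13.2% of all genes. Among the ligands, Wnt10a stood at 80.7 and 32.2 CPM against 1.05, 6.99 and 3.43 CPM, and Wnt4 at 93.9 and 56.8 CPM against 15.49, 12.01 and 2.483 CPM, above all 13 other clones. Among the targets, Axin2, a feedback inhibitor of the pathway, stood at 18.99 and 9.789 CPM against 3.602, 2.311 and 1.714 CPM (log2 difference 2.45, SE 0.46, edgeR adjusted p = 0.218). The 2 genes below all others were the secreted antagonists Sfrp1 and Sfrp2. The median in the libraries numbered 1 was 0.25, and against the T cell high clones it was -0.04, whose Wnt10a ranged from 0.819 to 46.1 CPM.

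Epithelial and mucin genes were split. Epcam, an epithelial adhesion molecule, stood at 99.2 and 345 CPM against 44.8, 15.7 and 21.7 CPM, and Agr2, a protein of mucus-secreting cells, at 7.93 and 62.0 CPM against 1.11, 0.360 and 1.15 CPM (edgeR adjusted p = 0.24 and 0.218). Tff1, a gastric trefoil peptide, lay on the other side, at 3.99 and 16.7 CPM against 438, 35.0 and 29.1 CPM. Krt14, a basal keratin, stood at 3.45 and 5.67 CPM against 34.9, 16.4 and 60.9 CPM. Mmp7, a matrix protease of glandular epithelium, had the smallest p of any list member, at 3.05 and 2.10 CPM against 0.0300, 0.0600 and 0.0350 CPM (edgeR adjusted p = 0.0598). The T cell high clones spanned 36.2 to 797 CPM for Epcam and 0.188 to 140 CPM for Agr2, so that neither gene set the bulk_6419 clones apart from them.

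Single members of other lists also stood outside the range of the other low clones. Peg3, an imprinted zinc finger gene, stood at 18.8 and 34.2 CPM against 6.21, 5.07 and 7.48 CPM and above all 13 other clones. Ctgf, a matricellular target of the Hippo pathway, stood at 561 and 487 CPM against 232, 169 and 216 CPM. Slc7a11, the cystine transporter controlled by Nrf2, stood at 13.5 and 30.6 CPM against 92.6, 82.9 and 66.6 CPM, and Car9, a hypoxia-induced carbonic anhydrase, at 30.5 and 63.8 CPM against 124, 146 and 227 CPM. The edgeR adjusted p of these genes ranged from 0.218 to 0.247. Each had the smallest p of its list, and the lists were mixed. Of 12 tested Hippo genes, 4 were higher and 8 lower (2 above and 2 below all 3 others). For 15 Nrf2 genes it was 6 and 9 (0 and 2), and for 18 hypoxia and glycolysis genes 9 and 9 (1 and 2). For 15 imprinted genes it was 9 and 6 (6 and 0). Over all genes, 18.9% lay above and 13.2% below.

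Chromosome 12 was the chromosome with the lowest expression in the bulk_6419 clones relative to the other low clones. The median over 392 expressed genes of the log2 difference from the mean of the other low clones was -0.545 in bulk_6419c1 and -0.513 in bulk_6419c5, against 0.172, -0.006 and -0.172 in bulk_6499c3, bulk_6556c3 and bulk_6694c2. Of these genes 59.9% lay below all 3 others in both bulk_6419 clones, beside 16.7% of the 11548 genes on all chromosomes. In 9 of 9 windows of 10 Mb with at least 20 genes, both medians lay below those of all 3 others, from -0.765 to -0.382. These windows split the same genes of a chromosome picked for its low median, so they are no separate support. On chromosome 7, 10 of 14 such windows had both medians above all 3 others. For chromosome 12 the libraries numbered 1 gave -0.276 and -0.146 against 0.132, 0.001 and -0.135.

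Against all 13 other clones the difference was smaller. The chromosome 12 mean of the bulk_6419 clones relative to the median of 15 clones was -0.259, and the other clones ran from -0.22 to 0.441. An exact two-sided permutation test of 2 against 13 clones gave p = 0.0476, where 0.00952 is the smallest it can give, and the value adjusted over 20 chromosomes was 0.317. The same test gave a smaller p for chromosome 6 (0.019, with a mean of -0.138 below all 13 others) and chromosome 9 (0.0286), both 0.286 after adjustment. Relative to the other low clones, chromosome 18 (41.2% of genes below) and chromosomes 7 and 8 (34.5% and 32.6% above) also differed from the background of 16.7% below and 16.8% above. Against the 13 other clones all 3 lay within the others' range, with exact permutation p of 0.4, 0.133 and 0.295. Chromosome X differed within the pair, with a median of 0.452 in bulk_6419c1 and -0.157 in bulk_6419c5. Gene dosage was not measured.

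**Figure D4:**
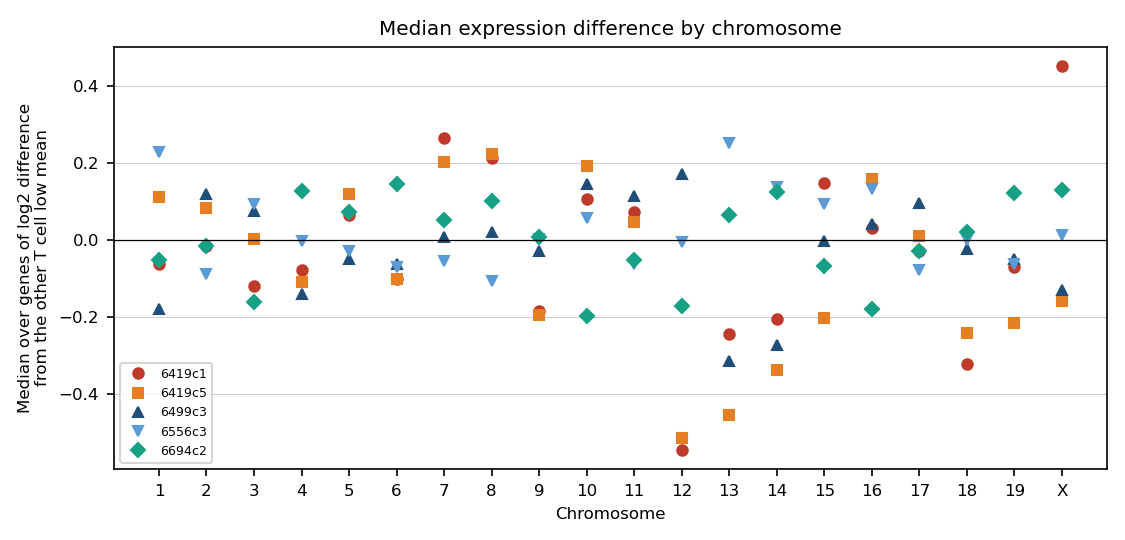
Median over expressed genes of the log2 difference from the mean of the 3 other T cell low clones, by chromosome, with 1 symbol per library. On chromosome 12 the bulk_6419 clones sit at -0.545 and -0.513, below the 3 others, and on chromosome X they sit apart from each other.

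The bulk_6419 clones also differed from each other, which can be described but not tested with 1 library each. Of 11750 genes with at least 5 CPM in 1 of the 2 libraries (TMM-scaled), 191 differed by 4-fold or more, 91 higher in bulk_6419c1 and 100 higher in bulk_6419c5. The 6 pairs of a bulk_6419 library with another low clone gave 303 to 601 genes, and the 3 pairs among the other low clones gave 231 to 562. Other pairs of clones that share a number gave 96, 163 and 395, so the likeness of bulk_6419c1 to bulk_6419c5 fell within that range. The 78 remaining pairs, of clones that do not share a number, gave 87 to 1105 (median 451). Some of those were more alike than the bulk_6419 pair, such as bulk_6499c4 with bulk_6555c3 at 87.

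The 5 genes with the largest ratio towards bulk_6419c1 had no common theme that was tested. Cdh16, a cadherin of kidney tubules, stood at 92.7 CPM in bulk_6419c1 and 0.331 CPM in bulk_6419c5, a 292-fold ratio on the TMM scale (95% interval 153 to 639, counting error only). Pax2, a transcription factor of the kidney lineage, stood at 44.3 and 0.405 CPM, and the airway mucin Muc5b at 101 and 1.69 CPM. Bai2 and Habp2, a serine protease of plasma, followed at 33.4 against 1.66 CPM and 31.1 against 1.69 CPM. Of the other low clones, bulk_6499c3 had 14.7 CPM of Pax2 and 72.1 CPM of Muc5b, so these genes are not limited to bulk_6419c1.

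The 5 genes with the largest ratio towards bulk_6419c5 included 2 of the stomach lining. Gkn1 and Gkn2, secreted gastrokines of the stomach lining, stood at 2.59 and 0.862 CPM in bulk_6419c1 and at 149 and 50.5 CPM in bulk_6419c5. Nkx2-3, a homeobox factor of gut mesenchyme and spleen, stood at 0.754 and 53.3 CPM, a 67.9-fold ratio (95% interval 44.2 to 110.0, counting error only). Shisa6, which regulates glutamate receptors, stood at 1.33 and 60.8 CPM, and Homer2, a synaptic scaffold, at 1.58 and 60.3 CPM. In bulk_6499c3 Gkn1 and Gkn2 reached 110 and 95.6 CPM, and the T cell high clones reached 316 and 354 CPM.

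The Hox A cluster set bulk_6419c5 apart from bulk_6419c1, the other low clones and the T cell high clones. The 11 genes summed to 67.8 CPM in bulk_6419c5, against 7.32 CPM in bulk_6419c1, 9.34, 3.63 and 4.69 CPM in the other low clones and 4.30 to 9.30 CPM in the T cell high clones. Hoxa10, a factor of posterior body patterning, stood at 28.2 CPM in bulk_6419c5 and 1.33 CPM in bulk_6419c1, against 1.74, 0.0600 and 0.874 CPM. Hoxa13, the most posterior gene of the cluster, stood at 9.68 CPM in bulk_6419c5 and 0.215 CPM in bulk_6419c1, at 0, 0.0300 and 0 CPM in the other low clones. All 9 tested genes of the cluster had a higher value in the bulk_6419 clones on average, but the median log2 difference of 1.47 was 0.34 without bulk_6419c5. The library numbered 1 of bulk_6419c5 summed to 7.32 CPM, with Hoxa13 at 0.

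**Figure D5:**
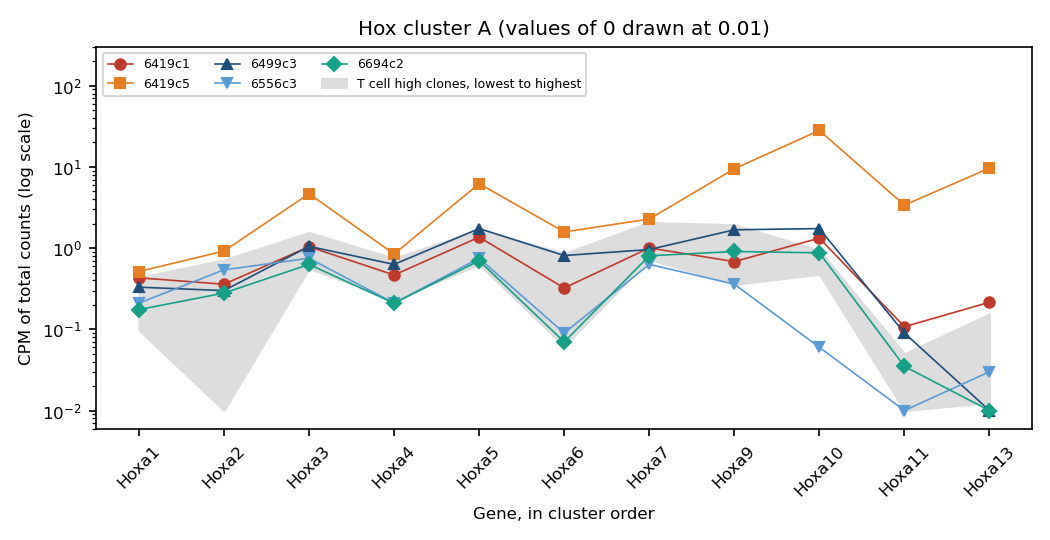
Level of the 11 Hox A genes in cluster order, in CPM of total counts on a log axis, with values of 0 drawn at 0.01. Lines join the genes of 1 library and the grey band is the range of the T cell high clones. The line of bulk_6419c5 is highest for every gene, up to 28.2 CPM at Hoxa10, and that of bulk_6419c1 lies below it. At Hoxa11 (0.108 CPM) and Hoxa13 (0.215 CPM) bulk_6419c1 lies above the other low clones and the grey band.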

How the data were processed

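Raw counts per gene for 37 libraries were taken as the authors deposited them: whole-number counts of 39017 genes, not normalised, judged from the values. Per the submitters' processing notes, STAR, featureCounts and mm10 were used. Not given in the sources used here were tool versions, gene annotation, strandedness and how multi-mapping reads were handled. Near-identical, overlapping and antisense genes are therefore uncertain. Positions came from GENCODE M21 for 37607 identifiers. Depth was 27.2 to 33.3 M counts per library, intervals and floors cover counting error only, and a floor is 3 counts.

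The comparison was fitted with edgeR 4.0.16 in R 4.3.3 (glmQLFit, TMM factors 0.959 to 1.05, filterByExpr, two-sided quasi-likelihood test, Benjamini-Hochberg adjustment, threshold 0.05), with DESeq2 1.42.0 and limma 3.58.1 (voom) as alternatives. Genes were also fitted without a filter, with a mean of at least 5 CPM, with other scalings, with bulk_2669c4 added, over 15 clones and leaving out each library. The fit against T cell high clones used 17 libraries whose summed Myh6, Myh7, Cps1 and Serpina3k was at most 10 CPM, summed per clone. SE is the absolute log2 difference divided by the square root of F and is approximate. CPM (counts per 1 M) is of total counts, except for library pairs and chromosomes, which used TMM scaling (prior count 2 for log values). The edgeR script was tested on simulated data.

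Named were Spp1, Clu and Krt19, 10 genes per direction by largest called difference or else smallest p (at least 5 CPM in the higher group, no predicted genes), up to 4 called members or the member with the smallest p of each of 46 lists (669 genes, 664 found), and 5 genes per direction between the 2 bulk_6419 clones (at least 20 CPM, same direction in the libraries numbered 1). Further list members are named as examples, chosen after their values were seen. The members, lists and tests were chosen with earlier results of these data known. The T cell low clone bulk_2669c4 entered only the fit over 15 clones and 1 alternative, and tumours with no T cell label were not used. Promoters came from RefSeq (GRCm38.p6). Figures were drawn with matplotlib 3.10.9 in Python 3.11.15. Some list members are not reported here.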

Additional observations from a re-analysis of the deposited data

Results flagged for a closer look

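Among the 7 T cell high clones, 3 of the genes named above had 1 clone far from the other 6, by Dixon's criterion for the gap to the nearest clone. Olfm4 stood at 20.3 CPM in bulk_7160c2, against 0.0661 to 6.52 CPM in the others. C4bp stood at 8.52 CPM in bulk_7160c2, against 0.114 to 2.86 CPM in the others. Fam110c stood at 48.3 CPM in bulk_6556c4, against 16.6 to 28.8 CPM. Chance gives such a gap in about 1 of 20 groups of normally distributed values. Whether these levels are so distributed was not tested, and 23 genes were looked at.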

How the results depend on the processing

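The count of genes that differed between the bulk_6419 clones and the other low clones was 0 with edgeR and also with RLE factors, with a mean of at least 5 CPM, with all 15 clones in 1 fit and in the libraries numbered 1. It was 3 with upper-quartile scaling, 4 with limma voom, 8 with bulk_2669c4 added, 76 without a filter and 561 with DESeq2 (359 higher, 202 lower), and from 0 to 61 when leaving out 1 library, with the 61 reached without bulk_6499c3. Against the T cell high clones the count of 21 became 93 with DESeq2 and 6 to 18 when leaving out 1 bulk_6419 clone, with 6 reached without bulk_6419c1. The 191 genes that differed 4-fold between bulk_6419c1 and bulk_6419c5 became 392 in the libraries numbered 1, whose clone labels are in doubt. Of the 23 genes named for the comparison with the other low clones, 2 turned in the libraries numbered 1: Krt19, to -0.32, and Sfrp2, to 0.17. The cause was not tested. No paired analysis was possible because the libraries compared all carry tumour number 2.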
